A study of Rattus norvegicus with 24 samples.

Results

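The 10 genes followed here are ones that FGF and ERK signalling switches on to limit or carry its own output. They were measured through 6 rat RNA-seq libraries. The set comprises the ETS factors Etv1, Etv4 and Etv5, the Sprouty genes Spry1, Spry2 and Spry4, the Sprouty-related genes Spred1 and Spred2, and the dual-specificity phosphatase genes Dusp4 and Dusp6. The members were chosen by gene symbol from those present in a table of 12187 genes, each of which reached at least 0.967 CPM (reads scaled to a common library size) in some library. All 10 genes on the list were present, and all 10 passed the filter on low values that left 11823 genes for testing. Both choices were made with earlier results of these data known. Presence in the table was the measured value that the choice used.

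The study grew Sprague-Dawley rat neural stem cells and differentiated them without or with vitamin C. Its RNA-seq covers undifferentiated stem cells (labelled D0), cells differentiated without vitamin C (VC-) and cells differentiated with vitamin C (VC+), with 2 libraries a group. No group carries a transgene or mutation in its labels. In the differentiated groups replicate 1 is labelled D4 and replicate 2 D5, so replicate number and D label cannot be told apart. Age, brain region, culture medium, growth factors and the vitamin C dose are not given in the sources used here, and neither is the origin of the replicates (separate animals, separate cultures or neither). A p-value here weighs a difference only against the spread of these libraries, which may not be that between separate animals or cultures. The other 18 samples of the series were not analysed here.

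Fibroblast growth factors bind FGF receptors, which pass the signal through RAS, RAF and MEK to the kinase ERK. ERK then relieves Capicua, a repressor that sits on the genes of the PEA3 group of ETS factors, several Sprouty genes and Dusp6, and the induced proteins either carry the programme on (the ETS factors) or damp the cascade (Sprouty, Spred and phosphatase proteins). In neural stem cells this pathway is known for sustaining proliferation, and the same genes are widely used as a readout of ERK activity.

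The replicate sets differed widely, and the cell type markers moved with them. Microglia and macrophage markers were higher in replicate 2 of every group for 12 of 12 genes, with a summed level of 5.58 to 6.68 CPM in replicate 1 and 325 to 861 CPM in replicate 2. In replicate 1, C1qa was listed at 0 in stem cells and in cells with vitamin C, and at 0.349 CPM without it. Fibroblast and meninges markers were higher in replicate 2 of every group for 9 of 9 genes. In replicate 1 they summed to 185 CPM for stem cells, 325 CPM without vitamin C and 260 CPM with it. In replicate 2 their sums fell in that order of groups, from 10297 to 6355 and 4004 CPM. Markers of mature oligodendrocytes (Mbp and Cnp the most abundant) summed in replicate 1 to 295 CPM for stem cells, 10081 CPM for cells lacking vitamin C and 7351 CPM for cells given it, and in replicate 2 to 140, 631 and 507 CPM. Those of oligodendrocyte precursors (led by Ptprz1 and Olig1) summed to 5342, 5075 and 4786 CPM and to 3196, 1205 and 1124 CPM. Astrocyte markers (led by Apoe and Sparcl1) summed to 2025, 3204 and 9678 CPM and to 5456, 9033 and 15572 CPM. Neuron markers lay between 407 and 509 CPM in all 6 libraries. The 11 stem cell markers in the table summed to 4205, 4259 and 3390 CPM and to 5667, 4790 and 5200 CPM. Among them Sox2 was at 363 and 337 CPM in stem cells (replicate 1, then 2) and 452 and 343 CPM without vitamin C, and Nes, which encodes nestin, at 159 and 116 CPM against 81.6 and 53.5 CPM. So the stem cell libraries express their defining markers, and Sox2 was not lower in cells lacking vitamin C. The part of these cell types in the results that follow was not tested, and in bulk RNA fewer cells of a type and less RNA per cell cannot be told apart.

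All 10 feedback genes stood lower in differentiated cells than in stem cells, in both replicate sets, and 9 of them stood lower again with vitamin C than without it. The order stem cells, then without, then with vitamin C held in both sets for every member except Spry4, against 6.15% of all genes tested. Centred on each gene's own mean, the average of the members on the log2 scale was 0.97, -0.06 and -0.76 in replicate 1 (stem cells, without, with vitamin C) and 1.21, -0.45 and -0.92 in replicate 2. Group accounted for 83.1% of the variation of the members between libraries and replicate number for 13.0%, whereas over all genes tested group accounted for 21.0% and replicate number for 67.9%. By single member the share of group ran from 45.8% for Etv1 and 60.8% for Spry2, the lowest, to 91.0% for Dusp4. Replicate number accounted for 37.2% in Etv1 and 29.9% in Spry2.

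**Figure D1:**
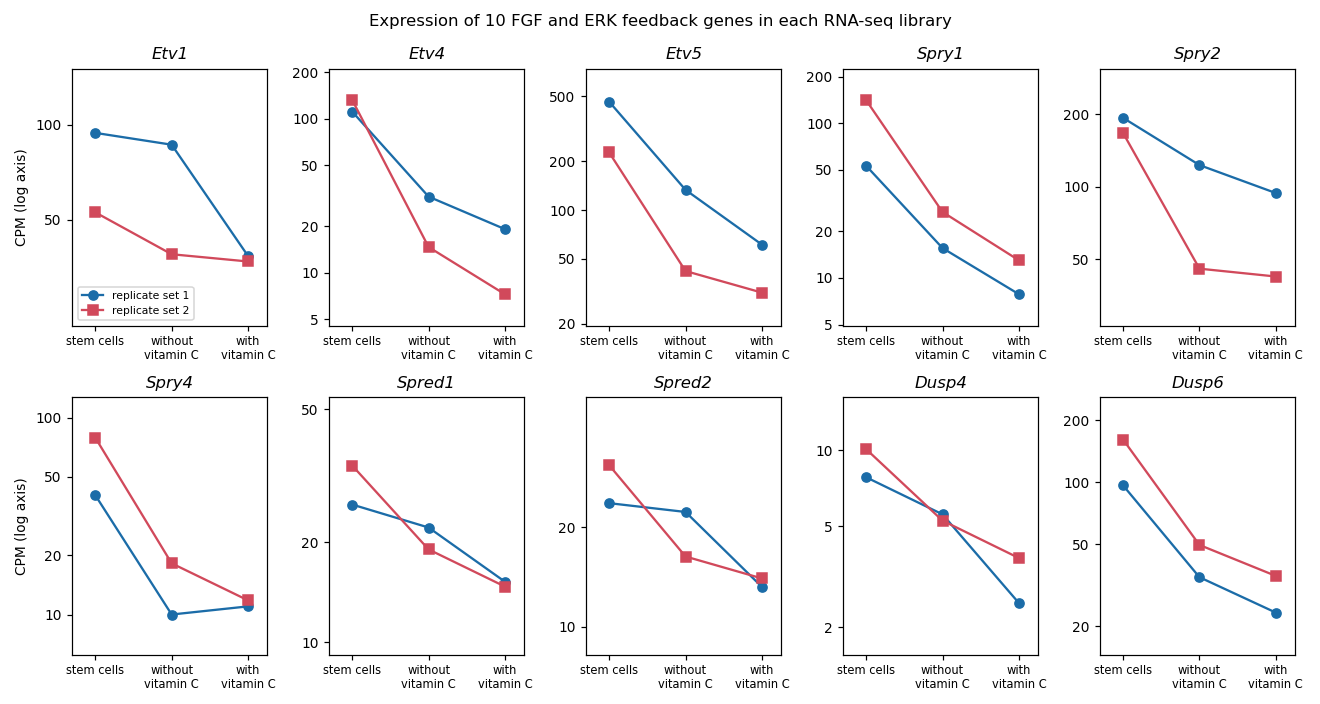
Expression of each of the 10 genes in CPM (log axis) in stem cells and in cells differentiated without or with vitamin C; circles are replicate set 1, squares replicate set 2, and lines join libraries with the same replicate number. Every line descends from stem cells to the differentiated groups, and the lines of Spry4 alone include a step up, from 10 to 11 CPM in replicate 1.

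Among the ETS factors, Etv4 and Etv5 were strongly lower after differentiation and Etv1 much less so. These PEA3-group proteins activate transcription downstream of receptor tyrosine kinases. Etv4 measured 111 and 132 CPM in stem cells (replicate 1, then replicate 2), 31.2 and 14.7 CPM without vitamin C, and 19.2 and 7.26 CPM with it. Its 2 stem cell libraries lay above all 4 differentiated ones, and with vitamin C the level was 17.3% and 5.50% of that in stem cells. Etv5 measured 464 and 226 CPM in stem cells, 133 and 42.1 CPM after differentiation alone, and 61.2 and 31.0 CPM with vitamin C added. Here the stem cell libraries also lay above the others, but the groups without and with vitamin C overlapped, and replicate 2 was the lower one in each group. The Etv4 groups without and with vitamin C overlapped as well. Etv1 stood at 94.2 and 52.7 CPM, 86.4 and 38.8 CPM, and 38.3 and 36.8 CPM. Without vitamin C the Etv1 libraries overlapped those of stem cells, and replicate 1 kept 91.7% of the stem cell level. With vitamin C both libraries lay below every other one.

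Sprouty proteins are membrane-associated inhibitors that act between the receptor and RAF. Spry1 measured 53.1 and 141 CPM in stem cells, 15.6 and 26.7 CPM without vitamin C, and 7.85 and 13.0 CPM with it. The 3 groups of Spry1 did not overlap, and the level with vitamin C was 50.4% and 48.6% of that without it in the 2 sets. Spry4 measured 40.4 and 79.2 CPM in stem cells, 10 and 18.2 CPM after differentiation alone, and 11 and 11.8 CPM with vitamin C added. Differentiated cells of either kind lay below stem cells, while the Spry4 groups without and with vitamin C overlapped and the sets went opposite ways. Spry2 stood at 193 and 167 CPM, 123 and 45.8 CPM, and 94.2 and 42.5 CPM. The Spry2 level without vitamin C was 63.5% of that in stem cells in replicate 1 and 27.4% in replicate 2, the widest gap between sets among the Sprouty genes.

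The sequence before the start of Spry4 is printed because it carries repeated copies of a part of 1 of the octamers that Capicua binds. RefSeq promoter windows (assembly GRCr8, from 250 bases before to 50 bases after a transcript start) were matched by symbol for 8 of the 10 genes, in 9 windows; Etv4 and Dusp4 had no entry. The windows were searched on both strands for the Capicua octamers TGAATGAA, TGAATGGA, TCAATGAA and TCAATGGA. One or more of these stood in 4.26% of all 33469 windows and in 2 of the 9 member windows, those of Spry4 and Dusp6. The shorter stretch TGAATGG, chosen after the Spry4 sequence was read and contained in the octamer TGAATGGA, stood in 3.69% of all windows. Spry4 held 4 copies, all on the strand opposite to the gene, and was 1 of 2 windows with 3 or more and the only one with 4. Because the stretch was chosen from this window, that rank does not measure how unusual Spry4 is. The 250 bases before the start lie at chr18:30702547-30702796 on the minus strand. Capitals mark the 3 copies in them, read as CCATTCA on the gene's strand, and the copy after the start is not shown.
Spry4 upstream: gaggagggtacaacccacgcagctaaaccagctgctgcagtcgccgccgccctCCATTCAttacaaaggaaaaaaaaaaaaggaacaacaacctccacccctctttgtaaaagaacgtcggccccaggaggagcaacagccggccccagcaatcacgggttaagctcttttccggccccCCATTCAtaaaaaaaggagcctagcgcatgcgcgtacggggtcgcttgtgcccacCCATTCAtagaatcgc
The first copy belongs to the octamer TGAATGGA, at -198 to -191 from the start. The others begin at -71, -16 and 37 and are not part of any of the octamers searched. The ETS motif CCGGAAG stood in 8.75% of all windows and in 0 of the 9 member windows. These matches are descriptions of letters and not sites shown to be bound.

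Spred1 and Spred2, whose proteins bring the RAS inactivator neurofibromin to the membrane, showed the smallest differences between stem cells and cells without vitamin C after Etv1. Spred1 measured 25.9 and 33.9 CPM in stem cells, 22.1 and 19.0 CPM after differentiation alone, and 15.2 and 14.7 CPM with vitamin C added. Spred2 stood at 23.6 and 30.7 CPM, 22.2 and 16.3 CPM, and 13.2 and 14.0 CPM. For both genes the 3 groups did not overlap, although Spred2 without vitamin C was at 94.2% of the stem cell level in replicate 1. The profiles of the pair over the 6 libraries were nearly parallel, with a Pearson r of 0.984 between them.

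The phosphatase genes followed the same order at unequal size. Dusp6, a cytoplasmic phosphatase for ERK, measured 96.5 and 161 CPM in stem cells, 34.6 and 49.6 CPM without vitamin C, and 23.3 and 35.1 CPM with it. Differentiated cells lay below stem cells, and with vitamin C the level was 67.4% and 70.7% of that without it, though these Dusp6 groups overlapped and replicate 2 was the higher one in each. Dusp4, a nuclear phosphatase of ERK and related kinases, stood at 7.82 and 10.1 CPM, 5.58 and 5.27 CPM, and 2.49 and 3.75 CPM. Its 3 groups did not overlap, but Dusp4 rests on the fewest reads of the members, from 26 to 154 a library. The Dusp6 window is shown at its 2 copies of the octamer TCAATGGA, at -37 to -30 and -12 to -5 from the start, both opposite to the gene. The octamer stood in 0.711% of all windows. Site A lies at chr7:35979561-35979580 and site B at chr7:35979586-35979605 (GRCr8, plus strand), and capitals mark the octamer, read as TCCATTGA on the gene's strand.
Dusp6 site A: aatgtaTCCATTGAgacgct
Dusp6 site B: tttgtaTCCATTGAggagct

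The first question of the design is how differentiation without vitamin C compares with stem cells. All 10 members were lower in both replicate sets, against 29.5% of all genes tested, and 9 of 10 had groups that did not overlap, against 13.2%. The median log2 difference of the members was -1.41, -1.06 in replicate 1 and -1.77 in replicate 2, beside 0.01 over all genes. Estimates from limma on log2(CPM + 0.5), which understates changes of low genes, ran from -2.47 (SE 0.58) for Etv4, -2.11 (SE 0.70) for Etv5, -2.06 (SE 0.59) for Spry1, -2.03 (SE 0.47) for Spry4 and -1.57 (SE 0.38) for Dusp6 to -0.28 (SE 0.48) for Etv1. None of the 10 passed the limma test with Benjamini-Hochberg adjustment, and neither did any other gene (0% of those tested; 5 members and 382 genes had an unadjusted p under 0.05). EdgeR on recovered reads also called 0, with 5 members and 384 genes unadjusted. DESeq2 on recovered reads called 0.631% of genes and 2 of the members, both lower: Etv4 (adjusted p 0.0447) and Spry4 (0.0455). With the VC- library of replicate 2 left out, Etv1 turned to 0.29 and the members' median was -0.96, and without replicate 1 of the stem cells Etv1 turned to 0.135.

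Cells differentiated with vitamin C were compared with the same stem cell libraries, so both comparisons share them. All 10 members were lower in both sets, against 29.0% of all genes, and all 10 had groups that did not overlap, against 13.2%. The median log2 difference was -1.80 (-1.65 and -2.07 by set), beside 0.01 over all genes. The largest were -3.30 (SE 0.58) for Etv4, -3.04 (SE 0.59) for Spry1, -2.88 (SE 0.70) for Etv5, -2.26 (SE 0.47) for Spry4 and -2.10 (SE 0.38) for Dusp6. Spry2 and Dusp4 followed at -1.50 (SE 0.60) and -1.40 (SE 0.43), and Spred1, Spred2 and Etv1 lay between -0.96 and -0.90. Limma called none of them (smallest adjusted p 0.974) and 0% of all genes, with 8 members and 507 genes unadjusted; edgeR called 0, with 8 members and 505 genes unadjusted. DESeq2 called 1.20% of genes and 5 of the 10 members, all lower: Etv4 (adjusted p 0.000463), Spry1 (0.000968), Dusp6 (0.00267), Spry4 (0.00527) and Etv5 (0.0131).

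**Figure D2:**
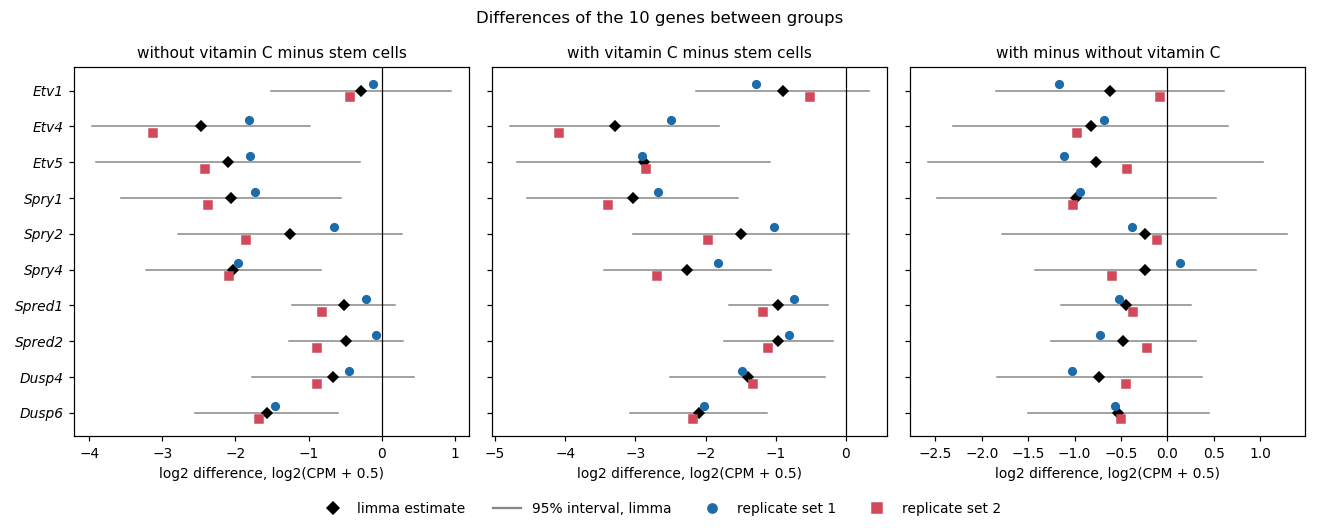
Log2 differences of the 10 genes in 3 comparisons; diamonds and bars are the limma estimates with 95% intervals, circles and squares the differences within replicate sets 1 and 2. Both comparisons with stem cells lie left of 0 in every set, and 9 of 10 genes do so for vitamin C, with Spry4 at 0.13 in replicate 1.

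The comparison the study centres on is that of differentiated cells with and without vitamin C. Members were lower with vitamin C in both sets for 9 of 10, against 26.4% of all genes tested, and the groups of 5 (Etv1, Spry1, Spred1, Spred2 and Dusp4) did not overlap, against 7.82%. The median log2 difference was -0.57, -0.71 in replicate 1 and -0.44 in replicate 2, beside 0.02 over all genes. With all 6 libraries Spry1 showed the largest, -0.98 (SE 0.59), at -0.95 and -1.01 in the 2 sets, followed by Etv4 at -0.83 (SE 0.58) and Etv5 at -0.77 (SE 0.70). Dusp6 was at -0.56 and -0.49 by set, close to its own value in the other set, whereas Etv1 was at -1.16 in replicate 1 and -0.07 in replicate 2. Spry2 and Spry4 were nearest to 0, at -0.24 (95% interval -1.78 to 1.29) and -0.23 (95% interval -1.43 to 0.96). Both intervals hold sizeable differences in either direction.

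None of these vitamin C differences passed. Limma called 0% of genes and no member (every adjusted p 1.00), with 0 members and 62 genes unadjusted, and edgeR called 0, with 0 members and 66 genes. DESeq2 called 0.0492% of genes, and 0.263% with the replicates paired, and no member either way. Replicates of these groups share a D label. With the replicate number as a block Spry1, Etv5 and Dusp6 had unadjusted limma p-values of 0.0112, 0.0176 and 0.0201, each with an adjusted p of 1.00. These were the 3 members among 404 of 11823 genes with an unadjusted p under 0.05 in that fit. The cells lacking vitamin C enter this comparison and the one with stem cells with opposite sign. The order of the members by size rests on single libraries. Etv4 ran from -1.50 with VC+ replicate 1 left out to -0.15 with VC+ replicate 2 left out, and Spry1 was at -0.64 and -1.32 in those fits. Etv1 ran from -1.19 to -0.05 with VC- replicate 2 or 1 left out, and Dusp6 from -0.82 to -0.24 with VC+ replicate 2 or 1 left out. With VC- replicate 1 left out the members' median was -0.32, Etv5 turned to 0.05 and Spry2 to 0.46. With VC- replicate 2 left out Spry4 turned to 0.18, and with the VC+ library of replicate 2 left out Spry2 turned to 0.33.

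Members differed in how they stood between the replicate sets. Etv5 was lower in replicate 2 in every group, by -1.04 in stem cells, -1.64 without and -0.97 with vitamin C. Etv1 and Spry2 were also lower there in all 3 groups. Spry1 was higher in replicate 2, by 1.40, 0.76 and 0.69, and so was Dusp6, by 0.73, 0.51 and 0.58, and Spry4, by 0.96, 0.83 and 0.10. The other 4 members had mixed signs. A limma term for the replicate number called 3 of 10 members, Etv5 lower (adjusted p 0.0134) and Dusp6 (0.0303) and Spry1 (0.0316) higher, near the 25.1% of all genes it called. The members' count moved with that of all genes when 1 library was left out. It was 5 without either stem cell library, where 4945 of 11773 and 5049 of 11746 genes were called. It was 0 without any 1 differentiated library, where 754 and 731 genes (VC+ replicate 1 or 2 left out) and 58 and 0 genes (VC- replicate 1 or 2 left out) were called. At an unadjusted p under 0.05, limma gave 5 members with either VC+ library left out (3120 and 3135 genes) and 3 with either VC- library left out (2782 and 2837 genes). The microglia, fibroblast and oligodendrocyte marker levels given above also differ between the sets, and their part in these differences was not tested.

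**Figure D3:**
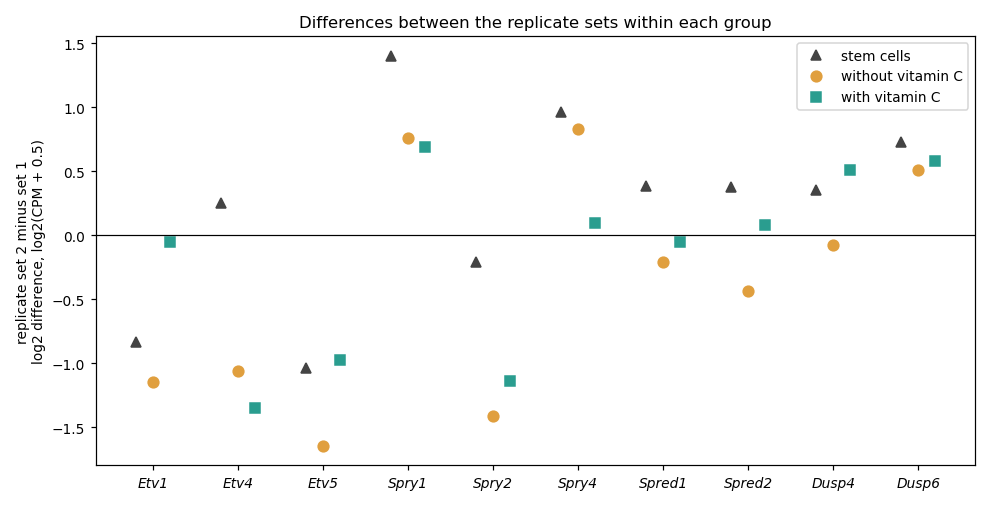
Log2 difference between replicate set 2 and replicate set 1 within each group for the 10 genes; triangles are stem cells, circles cells without and squares cells with vitamin C. Etv1, Etv5 and Spry2 lie below 0 and Spry1, Spry4 and Dusp6 above 0 in all 3 groups.

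Profiles of the members over the 6 libraries correlated with one another, with a median Pearson r of 0.826 over 45 pairs. Spry1 and Dusp6 were most alike at 0.994, and Etv1 and Spry4 least at 0.265. Etv4 and Etv5 were at 0.951, Spry1 and Spry4 at 0.968, and Spry1 and Spry2 at 0.558. These values rest on 6 libraries that share group and replicate differences, and they are given as a description.

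The other genes of the pathway are given by role, from lists chosen by known function, and no list's difference from the feedback genes was tested. Among the ligands, FGF ligands had a median log2 difference of -0.08 without and -0.27 with vitamin C against stem cells (7 genes), with 2 and 3 of them lower in both sets. Fgf11 and Fgf12, intracellular FGF relatives and the most abundant of this list, were low. In stem cells Fgf11 was at 15.6 and 9.13 CPM, against 9.28 and 4.45 CPM with vitamin C, and Fgf12 was at 13.0 and 3.48 CPM, against 9.95 and 3.93 CPM. EGF family ligands (6 genes) had medians of 0.15 and 0.04. The most abundant were Tgfa and Hbegf. Tgfa went from 6.81 and 5.39 CPM in stem cells to 37.1 and 9.22 CPM with vitamin C, and Hbegf from 3.03 and 22.5 CPM to 5.55 and 9.69 CPM.

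Receptors went in both directions. Of 11 tested, 3 were lower and 4 higher in both sets in each comparison with stem cells, and the medians were 0.02 and 0.06. Fgfr1, the most abundant, measured 455 and 944 CPM in stem cells, 259 and 552 CPM after differentiation alone, and 218 and 434 CPM with vitamin C added. Its differences were -0.79 (SE 0.62) and -1.09 (SE 0.62) against stem cells, with overlapping groups in the first. Pdgfra, a PDGF receptor listed here among the oligodendrocyte precursor markers, was at 53.2 and 193 CPM in stem cells. It stood at 539 and 381 CPM after differentiation alone, and 498 and 257 CPM with vitamin C added. Which cells its RNA came from was not tested. Egfr and Fgfr2 were picked here with their values in view. Egfr measured 194 and 132 CPM in stem cells, 85.0 and 27.2 CPM after differentiation alone and 69.7 and 20.8 CPM with vitamin C added, and Fgfr2 at 20.2 and 68.5 CPM, 75.0 and 109 CPM, and 83.5 and 131 CPM.

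Inside the cell, 21 genes of the cascade from RAS to ERK had medians of 0.16 and 0.11 against stem cells and 0.03 for vitamin C. Ptpn11, the phosphatase SHP2 that passes receptor signals to RAS, measured 219 and 183 CPM in stem cells, 321 and 205 CPM after differentiation alone, and 392 and 208 CPM with vitamin C added. The 17 other brakes on the cascade had medians of -0.19, -0.19 and -0.13, with 3, 7 and 7 genes lower in both sets. Sulf2 and Sulf1, which trim the heparan sulphate that FGFs need, led this list. Sulf2 was at 305 and 622 CPM in stem cells against 590 and 523 CPM with vitamin C, and Sulf1 at 51.3 and 1188 CPM against 36.5 and 255 CPM. Spred3 and Spry3, are relatives of the members and were picked with their values in view. Spred3 was at 13.5 and 25.6 CPM in stem cells, 16.5 and 9.83 CPM without vitamin C, and 11.3 and 6.74 CPM with it. Spry3 was at 1.89 and 2.30 CPM, 2.09 and 1.07 CPM, and 3.64 and 0.890 CPM.

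Other genes that ERK induces were more often higher than lower in differentiated cells. Of 17, without vitamin C 10 were higher and 3 lower than in stem cells in both sets (median 0.61), and with vitamin C 9 were higher and 3 lower (median 0.27). The share of all genes that were higher in both sets is not given here. Some of the genes counted as higher were very low, such as Egr3 and Fosl2, each at 0.378 CPM in stem cells of replicate 1. Ccnd1, cyclin D1, was among the lower ones, at 160 and 171 CPM in stem cells, 103 and 49.9 CPM after differentiation alone, and 68.1 and 55.2 CPM with vitamin C added. Srf, a transcription factor of early response genes, stood at 44.6 and 41.5 CPM, 57.5 and 75.5 CPM, and 57.7 and 82.5 CPM. Fos and Egr1, immediate early transcription factors picked with their values in view, were low in stem cells. Fos was at 2.77 and 9.07 CPM there, 39.1 and 19.1 CPM without vitamin C, and 12.8 and 30.1 CPM with it. Egr1 was at 8.95 and 6.44 CPM, 61.0 and 19.0 CPM, and 9.76 and 17.0 CPM. In replicate 1 Egr1 with vitamin C was thus near its stem cell level, and the sets went opposite ways for Fos between the groups without and with vitamin C. For vitamin C the median of this list was -0.24, -0.80 in replicate 1 and 0.02 in replicate 2. Of the Capicua genes 1 was tested, its partner Atxn1, at 6.18 and 10.2 CPM in stem cells, 21.3 and 28.6 CPM after differentiation alone, and 41.7 and 23.7 CPM with vitamin C added. Against stem cells it differed by 1.57 (SE 0.43) and 1.92 (SE 0.43), and DESeq2 called the second (adjusted p 0.0267). No gene of these 7 lists passed the limma test in any of the 3 comparisons, where 0% of all genes did, and Atxn1 was the one gene of them that DESeq2 called.

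**Figure D4:**
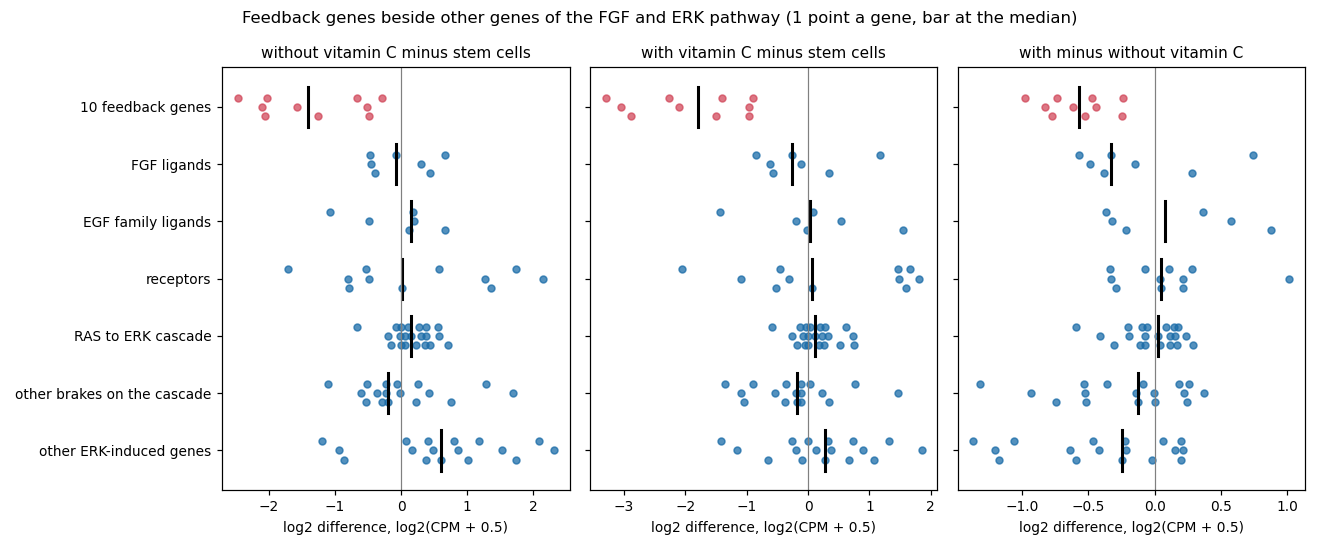
Limma log2 differences of single genes (points) and their medians (bars) for the 10 feedback genes and 6 other lists of the pathway, in 3 comparisons. The 10 feedback genes all lie left of 0 in the comparisons with stem cells, while most of the other ERK-induced genes lie right of it.

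The genes outside the list whose levels followed the average of the members most closely over the 6 libraries, among 8484 with a mean of at least 10 CPM, were Snrk (Pearson r 0.986), Evc (0.983), Tll2 (0.976), Cst3 (0.974) and Pabpc4 (0.973). Snrk, a kinase of the AMPK family, measured 95.1 and 89.6 CPM in stem cells, 49.9 and 31.9 CPM after differentiation alone, and 30.0 and 25.3 CPM with vitamin C added. Evc, a protein of the cilium base, stood at 68.5 and 74.0 CPM, 34.8 and 33.7 CPM, and 29.1 and 29.1 CPM. Cst3, the protease inhibitor cystatin C, stood at 3067 and 3531 CPM, 1237 and 713 CPM, and 324 and 488 CPM. Of the 8484 genes 25 reached an r of 0.95, and with 6 libraries such values are a description of shape alone.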

How the data were processed

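Per the labels' protocols, a TruSeq kit was used for the RNA. The authors deposited CPM per gene; the submitters' processing notes name STAR 2.5.1, edgeR 3.12.1 and the rn5 build, among tools of other assays, without roles. The counter, annotation, gene filter and strand setting are not given in the sources used here. Every deposited CPM value (100% of them) divided evenly by the smallest step of its library (relative tolerance 1e-06), and these reads were recovered: 4811094 to 6641721 in replicate 1 and 10299321 to 13184601 in replicate 2, or 60.2% to 67.7% of the total behind the scaling. The limit that a count of 0 allows, 3 reads, was 0.140 to 0.378 CPM (counting error only).

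Genes with at least 1 CPM in 2 libraries were tested with limma 3.58.1 in R 4.3.3 (trend, two-sided) on log2(CPM + 0.5), fitting all 3 groups together; calls needed a Benjamini-Hochberg adjusted p under 0.05 over all genes. An exact permutation test of 2 libraries against 2 cannot go below p = 0.333. EdgeR 4.0.16 (TMM) and DESeq2 1.42.0 were run on the recovered reads; library totals there are those of the genes listed. Alternatives tried were other pseudocounts (0.1, 2), other filters (none, 5 CPM), rescaling by median of ratios, fits of 2 groups, the replicate block and leaving out each library; leaving out libraries for the replicate term was added after seeing the data. VC- and VC+ libraries share a number and a D label, and their deviations from group means correlated at 0.914 across genes, so they were treated as paired in the blocked fit. The code was tested on simulated data. Genes named were the members, the 2 most abundant of each other list, the 5 most alike in profile, and those said to be picked with their values in view; 1 gene that this rule names is not reported here. The members and lists were chosen with earlier results of these data known. Promoter sequences are RefSeq's (GRCr8), not the build of the expression data.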

Additional observations from a re-analysis of the deposited data

How the results depend on the processing

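Under the alternatives for pseudocount, filter, scaling, fits of 2 groups and edgeR, no member was called in any comparison between groups, and no member changed direction. DESeq2 called 6 genes for vitamin C, 65 without vitamin C against stem cells (2 members) and 135 with it (5 members). DESeq2 with the replicate block called 32, 458 (6 members) and 761 genes (6 members); the members were Etv4, Etv5, Spry1, Spry2, Spry4 and Dusp6 in both comparisons with stem cells. Against stem cells the replicates share only a number (deviations correlated at 0.730 without and 0.688 with vitamin C across genes). The replicate block in limma or edgeR changed no call of a member between groups. Leaving out 1 library at a time, which assumes that a lone library varies as other groups do, the vitamin C median of the members ran from -0.73 to -0.32, Etv5 from -1.59 to 0.048, Spry2 from -0.95 to 0.46 and Spry4 from -0.65 to 0.18. Etv1 without vitamin C against stem cells ran from -0.85 to 0.29. For the replicate term, whose leave-outs were chosen after seeing the data, members called ran from 0 to 5, genes called from 0 to 5049, Spred1 from -0.13 to 0.17 and Spred2 from -0.18 to 0.23. Causes of these shifts were not tested. At 26 to 154 reads a library, depth limits Dusp4 most.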
